A study of Mus musculus with 3 samples.

Results

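Messages of tubulins, kinesins, cytoplasmic dynein, dynactin and microtubule-binding proteins were compared between RNA pulled down with an antibody to ezrin and RNA pulled down with normal mouse IgG. The genes were chosen by symbol alone, as names that begin with the tubulin, Kif, Dync, Dctn, Eml, Mapre, Map1 to Map4 and Map7 stems, which gave 94 of the 41743 symbols in the count tables. All 3 libraries came from untreated K7M2 cells, a mouse osteosarcoma line, with the genotype Ezrin -/- transfected with Ezrin T567A, so both antibodies were used on the same line. The knockout was made with CRISPR/Cas9 and the rescue was a stable transfection of mutant cDNA. The labels do not say whether the line was 1 clone. The ezrin IP gave 2 libraries, replicates 1 and 2, and the IgG IP gave 1, which serves as the background.

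Microtubules are hollow polymers of alpha- and beta-tubulin, and several genes encode slightly different versions (isotypes) of each. Gamma-tubulin starts new microtubules at the centrosome. Kinesins and dynein are motors that walk along the polymer, most kinesins towards its plus end and cytoplasmic dynein towards its minus end with the help of dynactin, and a group of kinesins builds the mitotic spindle or cuts the dividing cell apart. EML, MAP and end-binding proteins sit on the lattice or the growing tip. Ezrin belongs to the actin side of the cytoskeleton, where it ties filaments to the plasma membrane, and T567A ezrin cannot be phosphorylated at the threonine that opens it. The study's title concerns RNA bound by closed ezrin.

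The libraries held 19676595 and 16196329 counts (ezrin IP replicates 1 and 2) and 10124580 counts (IgG IP). Values below are CPM (counts per 1000000 counts) scaled by edgeR's TMM factors, which were 1.02, 1.036 and 0.946. A log2 fold is the ezrin IP over the IgG IP from edgeR's quasi-likelihood test, with its standard error (SE), and a gene was called higher or lower at an adjusted p under 0.05 (Benjamini-Hochberg over all 12478 tested genes). The IgG IP has no replicate, so its spread was taken from the 2 ezrin libraries. The labels name no separate cultures, so p-values measure only the spread between these samples, which may be technical. Of osteoblast and mesenchymal markers, Vim, Col1a2, Sparc, Col1a1, Spp1 and Runx2 each lay above 30 CPM in every library. Sp7, Bglap and Bglap2, markers of committed or late osteoblasts, had at most 5 counts and Ibsp none. Of the 11 osteoblast markers 7 were tested, and 4 were higher and 2, Runx2 and Alpl, lower. Alpl was rare, at 1.395 and 1.014 CPM in the ezrin libraries and 3.449 CPM in IgG. The 11 markers summed to 12170 and 9807 CPM in the ezrin libraries and 4752 CPM in IgG. Most of this was Vim, at 7633, 6107 and 2543 CPM. The part of these markers in the results below was not tested. The summed level of 12 neuronal markers was 5.28, 6.62 and 7.32 CPM, and testis, ciliated, macrophage, endothelial and epithelial marker lists each summed to at most 2.09 CPM.

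Tubulin, dynactin and spindle motor messages were the members most often higher in the ezrin IP. The only members called lower were transport and regulatory kinesins, and none of them was lower in all 10 settings tested. At 21.1% of the tested kinesins outside the mitotic group, these calls were near the 17.4% of all tested genes. Of the 94 symbols, 72 had enough counts to be tested, 14 had no count in any library and 8 had at most 12 counts. edgeR called 29 of the 72 higher and 4 lower, against 19% higher and 17.4% lower among all tested genes. At least 2-fold, 14 were higher and 1 lower, where the background was 9.83% and 9.54%. At least 4-fold, 3 were higher (Eml2, Kif2c and Kif22) and none lower, against 0.858% and 3.6% of all tested genes. DESeq2 called 25 members higher and 2 lower (background 14% and 8.82%), and edgeR over genes with a mean of 10 CPM or more called 25 and 4 (21.4% and 21.7%). Cyclic loess, which removes a trend of the folds with expression level, gave 25 and 5 (18.2% and 17.9%). It kept 21 of the 29 higher members and added Tubb2b, Tubd1, Tube1 and Kif5c, all at under 11 CPM. limma on log2(RPKM + 1) gave 40 and 1 (29.9% and 7.73%). The median log2 fold of the tested members was 0.50, beside −0.02 over all tested genes. Levels in an immunoprecipitate of many pooled cells cannot tell more bound RNA per cell from more cells that contributed it.

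Both ezrin libraries lay above IgG for all 29 higher members and below it for all 4 lower ones. The calls came from these same libraries, so this describes them and is no separate support. IgG was the lowest of the 3 libraries for 48 tested members and the highest for 14, against 42.6% and 44.3% of all tested genes. As single libraries with 1 CPM added to both sides, ezrin replicate 1 placed 15 members at least 2-fold above IgG and ezrin replicate 2 placed 13, all of them among the 15. Together the 94 symbols made up 1.29% of ezrin replicate 1 (exact 95% interval 1.28 to 1.29), 1.21% of ezrin replicate 2 (1.21 to 1.22) and 0.739% of the IgG library (0.733 to 0.744). Such intervals cover counting error only.

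**Figure D1:**
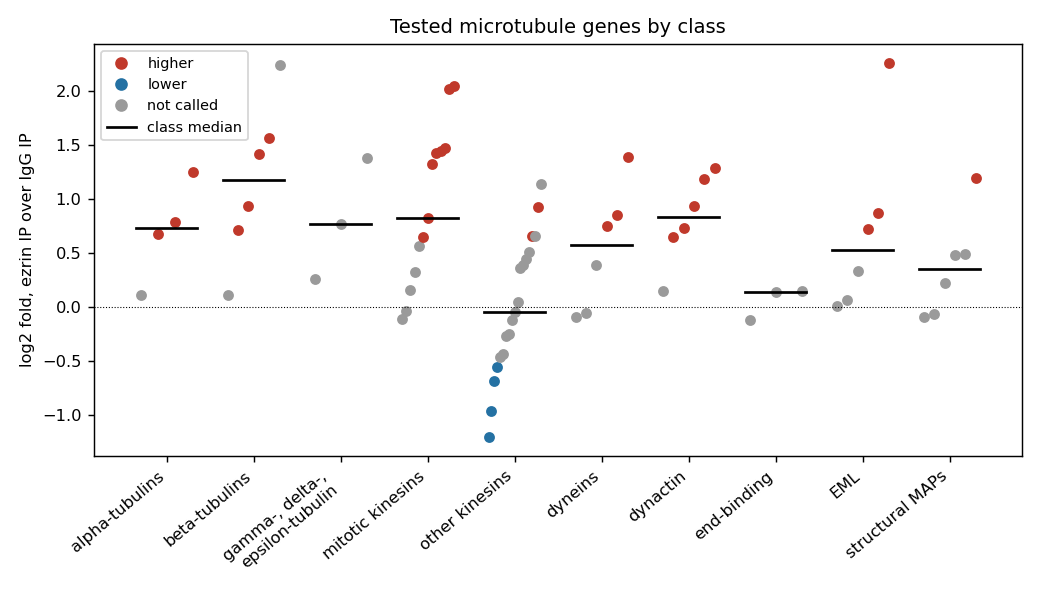
Log2 fold of the ezrin IP over the IgG IP (vertical axis) for the 72 tested members, by class; each point is 1 gene, colour gives the edgeR call and the bar is the class median. Called higher genes (29) appear in 8 of the 10 classes, and the 4 called lower genes are all in the group of other kinesins.

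The 2 tubulin isotypes of highest RPKM, Tuba1b and Tubb5, were both higher in the ezrin IP. So were Tubb4b, Tubb2a and Tuba1c, with larger folds. Of 19 tubulin symbols 13 were tested, and 7 were higher, none lower and 6 not called. Among all tested genes 19% were higher and 17.4% lower. The median log2 fold of the tested tubulins was 0.78. The tubulin symbols summed to 6272 and 5295 CPM in the ezrin libraries and 3090 CPM in IgG. This was 0.640% (0.636 to 0.643), 0.548% (0.545 to 0.552) and 0.292% (0.289 to 0.295) of counts.

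Among alpha-tubulins, Tuba1b (chromosome 15, 98931429 to 98934390, GRCm38) was at 1690 and 1495 CPM in ezrin replicates 1 and 2 and at 997 CPM in IgG. That was 1.60-fold higher (log2 fold 0.68, SE 0.22, edgeR adjusted p = 0.00723), yet after cyclic loess it was −0.03 and not called (adjusted p = 0.917). Tuba1b was also the isotype of highest level per length, at 756, 687 and 345 RPKM. Tuba1c (chromosome 15, 99029891 to 99038105) stood at 304 and 261 CPM against 119, a 2.38-fold difference (log2 fold 1.25, SE 0.25, edgeR adjusted p = 5.51e-06). Tuba4a, at 136 and 101 CPM against 69.1, was called higher as well (log2 fold 0.78, edgeR adjusted p = 0.00722), although it shares its locus with Stk16, which had 1700 counts over the 3 libraries beside 5088 for Tuba4a. Tuba1a, the isotype prominent in developing neurons, had 55.36, 50.02 and 48.81 CPM, so the groups nearly touched and it was not called (log2 fold 0.11, SE 0.25). Tuba3a had no count, and Tuba3b and Tuba8 had at most 5.

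Within the alpha-tubulin counts, a share that does not depend on how libraries are scaled, Tuba1c took 13.9% (13.6 to 14.2) and 13.7% (13.3 to 14.1) in the ezrin libraries and 9.63% (9.10 to 10.2) in IgG. Tuba1b took 77.3% (76.9 to 77.7), 78.4% (77.9 to 78.8) and 80.8% (80.1 to 81.5). Thus the ezrin libraries held relatively more Tuba1c and less Tuba1b than the 1 IgG library, and for these isotypes the 2 ezrin libraries lay close to each other. Tuba4a took 6.22% (5.99 to 6.45) in ezrin replicate 1 and 5.31% (5.07 to 5.56) in ezrin replicate 2, with IgG between them at 5.6% (5.19 to 6.03). Tuba1a, Tuba1b and Tuba1c are near-identical copies, and the labels do not say to which copy shared reads went, so the split among them is uncertain.

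All 4 beta-tubulins with over 10 CPM were called higher. Tubb5 (chromosome 17, 35833920 to 35838301), the main isotype of dividing cells, had 2665 and 2216 CPM against 1278 CPM, 1.91-fold higher (log2 fold 0.93, SE 0.21, edgeR adjusted p = 1.09e-04). Tubb4b (chromosome 2, 25222158 to 25224702) had 731 and 596 CPM against 224, 2.96-fold higher (log2 fold 1.56, SE 0.24, edgeR adjusted p = 1.57e-09). Both ezrin values lay far above IgG for these isotypes, with replicate 1 above replicate 2.

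Tubb2a followed with 237 and 199 CPM against 81.8 (2.67-fold, log2 fold 1.42 with SE 0.25, edgeR adjusted p = 4.64e-07). Tubb6 showed a smaller difference, at 348 and 288 CPM against 194 (1.63-fold, log2 fold 0.71, edgeR adjusted p = 0.0102). Cyclic loess took Tubb5 to a log2 fold of 0.13 (adjusted p = 0.646) and Tubb6 to 0.35 (adjusted p = 0.216), while Tubb4b (1.09) and Tubb2a (1.16) stayed called. Tubb3, the isotype used as a marker of neurons, was near background at 2.49, 1.55 and 1.88 CPM. Tubb2b had 7, 12 and 1 counts, so its fitted log2 fold of 2.24 (SE 1.56) is very imprecise. It was not called by edgeR, but was after cyclic loess (log2 fold 2.44, adjusted p = 0.0199). Tubb2a and Tubb2b are also near-identical copies. Tubb1, of platelets, and Tubb4a, of brain, had no count, which allows at most 0.152, 0.185 and 0.296 CPM in ezrin replicates 1 and 2 and IgG.

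As a share of beta-tubulin counts, Tubb4b took 18.3% (18.1 to 18.6) and 18.0% (17.7 to 18.4) in the ezrin libraries and 12.6% (12.1 to 13.1) in IgG. Tubb5 took 66.9% (66.6 to 67.2), 67.1% (66.7 to 67.5) and 71.8% (71.1 to 72.5). The beta-tubulin make-up of the 2 ezrin libraries was therefore nearly the same even though their tubulin levels differed. Of 13 tested tubulins, 12 were higher in ezrin replicate 1 than in ezrin replicate 2, with a median ratio of 1.19, whereas 49.8% of all tested genes were.

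Gamma-tubulin Tubg1, with 89.1 and 74.4 CPM against 68.2, was not called (log2 fold 0.26, SE 0.24). Delta-tubulin Tubd1 and epsilon-tubulin Tube1, which serve centrioles, were rare. Tubd1 had 10.3, 8.94 and 5.64 CPM (log2 fold 0.77, edgeR adjusted p = 0.0703) and Tube1 3.14, 2.86 and 1.15 CPM (log2 fold 1.38, adjusted p = 0.0547). IgG was the lowest library for these 3, and after cyclic loess Tubd1 and Tube1 passed (adjusted p = 0.0302 and 0.00219). Tubg2 had 1 count in all.

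**Figure D2:**
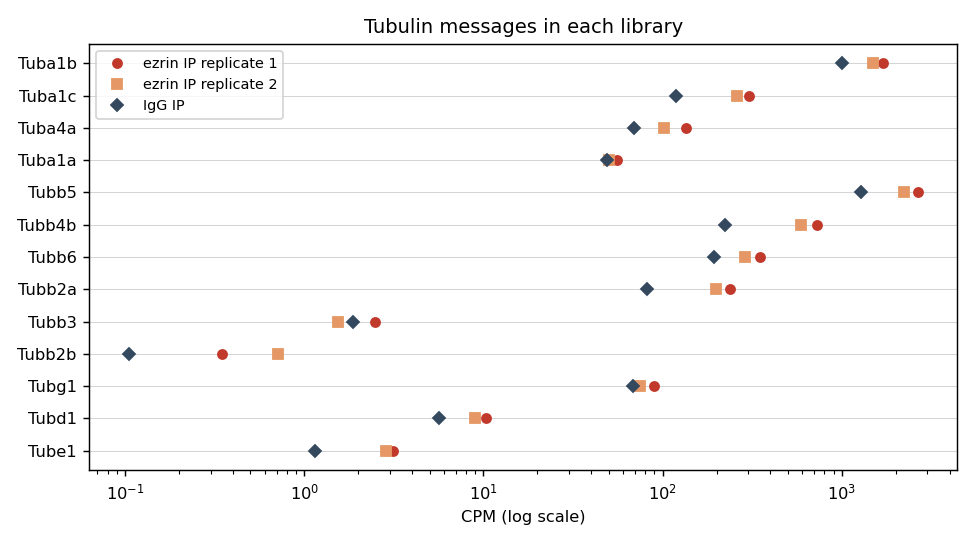
CPM on a log scale (horizontal axis) of the 13 tested tubulins in ezrin IP replicates 1 and 2 and the IgG IP; each marker is 1 library. IgG is the lowest of the 3 for 12 genes and lies between the ezrin libraries for Tubb3.

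Spindle and cytokinesis kinesins held the largest folds among the motors. All 13 mitotic kinesins were tested: 8 were higher, none lower and 5 not called, against 19% higher and 17.4% lower of all tested genes. Their median log2 fold was 0.82, and 0.86 and 0.75 in ezrin replicates 1 and 2 alone. Their summed level was 1286 and 1337 CPM in the ezrin libraries against 664 CPM in IgG. The grouping into mitotic and other kinesins was set by hand from textbook function, with earlier results of these data known. Other splits are possible. Kif2a (log2 fold 0.39, not called) was placed among the other kinesins, and the kinesin Cenpe (0.63, called higher) among the motor partners.

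Of the mitotic kinesins, Kif2c (MCAK), which takes tubulin off microtubule ends at centromeres (chromosome 4, 117159633 to 117182624), had 97.3 and 100.6 CPM against 23.9 CPM. It was 4.13-fold higher (log2 fold 2.05, SE 0.28, edgeR adjusted p = 7.07e-12). Kif22, a motor that pushes on chromosome arms (chromosome 7, 127027729 to 127042467), had 121 and 116 CPM against 29.4 and was 4.04-fold higher (log2 fold 2.01, SE 0.27, edgeR adjusted p = 8.86e-12). For both genes the ezrin libraries lay close together and far above IgG.

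The kinesins of the central spindle and cytokinesis followed. Kif20a stood at 293 and 316 CPM against 112 (2.72-fold, log2 fold 1.44 with SE 0.25, edgeR adjusted p = 1.41e-07), and its span overlaps Cdc23, with 3356 counts beside 12241 for Kif20a. Kif23, which bundles the midzone with Racgap1, stood at 80.7 and 85.2 CPM against 31.0 (2.67-fold, edgeR adjusted p = 1.69e-06). Kif4, a chromosome-bound motor that also works at the midzone, stood at 51.6 and 61.0 CPM against 20.3 (2.78-fold, edgeR adjusted p = 1.52e-06). In each case the groups were separated by more than the gap between the ezrin libraries.

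Kifc1, a minus-end motor that focuses spindle poles, had 149 and 133 CPM against 56.3 (2.51-fold, edgeR adjusted p = 3.75e-06). Its near-identical copy Kifc5b had 59.4 and 55.4 CPM against 32.5 (1.76-fold, edgeR adjusted p = 0.00733), and reads may be shared between the copies. Kif18b, which shortens astral microtubules, had 126 and 90.1 CPM against 69.3, with the ezrin libraries farther from each other than replicate 2 was from IgG (log2 fold 0.64, edgeR adjusted p = 0.0294). The log2 ratio to IgG was 0.86 for ezrin replicate 1 but 0.38 for replicate 2, and DESeq2 did not call it (adjusted p = 0.0785).

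The 5 uncalled mitotic kinesins included Kif11, the Eg5 motor that separates spindle poles, at 153 and 180 CPM against 133 (log2 fold 0.32, SE 0.24). Kif15, its backup, lay at 39.4 and 50.3 CPM against 30.4 (0.56, SE 0.26). Kif20b, a relative of Kif20a, had IgG between its ezrin libraries (69.8 and 98.7 CPM against 75.7), as did Kif18a (8.67 and 11.9 against 11.1). Kif14 was flat at 37.4, 38.3 and 38.9 CPM. Related motors thus had unlike values: Kif20a (2.72-fold) beside Kif20b (log2 fold 0.15), and Kif2c (4.13-fold) beside Kif2a (log2 fold 0.39), though these differences between genes were not tested.

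Most mitotic kinesins shared a short promoter sequence. They were grouped by mitotic function, and the sequence is known from promoters of late cell cycle genes. The match is thus not independent of the grouping, and other late cell cycle genes were not compared. RefSeq promoters of GRCm38.p6, from 250 bases before to 50 after the transcript start, were searched for TTTGAA on both strands, the core of the cell cycle homology region that is known from promoters of late cell cycle genes. Promoters were at hand for 76 of the 94 members, 12 of them mitotic kinesins. The sequence was in 11 of the 12 (91.7%), against 20 of all 76 members and 20.2% of 27025 symbols with a promoter. Within 50 bases of the start it was in 9 of the 12 (75.0%), against 5.72% of all symbols. It did not separate the calls: 7 of 7 higher kinesins with a promoter and 4 of 5 uncalled ones had it. Kifc1 and Kifc5b, near-identical copies, are counted apart, and a symbol matched if any of its promoters did. The matches in Kif2c and Kif14 lay farther out, at −103 and −228 bases from the start. A match is a description of these letters, not a site or a cause, and all libraries came from the same line. The 30 bases around the match nearest the start are shown for 4 higher and 2 uncalled kinesins, 5′ to 3′ on the gene's strand, with the match in capitals (TTCAAA is the same match on the other strand).
Kif22 (higher, chr7:127042420-127042449, minus strand): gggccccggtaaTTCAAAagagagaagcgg
Kif23 (higher, chr9:61946780-61946809, minus strand): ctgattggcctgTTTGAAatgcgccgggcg
Kif4 (higher, chrX:100626072-100626101, plus strand): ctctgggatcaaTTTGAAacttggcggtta
Kifc1 (higher, chr17:33890615-33890644, minus strand): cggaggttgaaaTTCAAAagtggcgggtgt
Kif11 (not called, chr19:37376351-37376380, plus strand): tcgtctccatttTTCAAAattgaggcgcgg
Kif15 (not called, chr9:122951050-122951079, plus strand): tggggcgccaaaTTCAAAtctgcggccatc

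Transport, ciliary and other kinesins went both ways. Of 31 symbols 19 were tested: 2 were higher (10.5%, against 19% of all tested genes), 4 lower (21.1%, against 17.4%) and 13 not called. The share of lower calls was thus near the background. The median log2 fold of the class was −0.05, beside −0.02 over all tested genes. It was 0.07 when only library size was scaled for, and 0.14 and 0.34 with 1 and 0.1 added to RPKM. In these settings the median of all genes was 0.10, 0.22 and 0.34, so the change of sign went with a shift of all genes. Without the filter on low counts the class median was 0.45, but it then took in 4 more symbols, which had at most 12 counts. The summed level was 1229 and 1293 CPM in the ezrin libraries and 1400 CPM in IgG.

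The lower genes were led by the kinesin-4 motors Kif21a and Kif21b, which restrain microtubule growth. Kif21a (chromosome 15, 90933275 to 91050382) had 76.0 and 85.6 CPM against 158, 1.96-fold lower (log2 fold −0.97, SE 0.23, edgeR adjusted p = 2.34e-04). Kif21b (chromosome 1, 136131390 to 136178001) had 9.12 and 7.51 CPM against 19.2, 2.31-fold lower (log2 fold −1.21, SE 0.29, edgeR adjusted p = 2.01e-04). Both ezrin libraries were well below IgG for these genes, while Kif4 of the same family was among the higher kinesins above. With RPKM, which raised the median of all tested genes to 0.22, Kif21a was not called (log2 fold −0.54, adjusted p = 0.0685).

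Kif5b, the ubiquitous heavy chain of kinesin-1, had 206 and 232 CPM against 322 (1.47-fold lower, log2 fold −0.56 with SE 0.23, edgeR adjusted p = 0.0395). DESeq2 did not call it (adjusted p = 0.0717), nor did library size alone (adjusted p = 0.121). The neuronal heavy chains Kif5a and Kif5c were near 0, with at most 6 and 26 counts. Kif5c gave a log2 fold of 1.14 with an SE of 0.82, and was called only after cyclic loess (adjusted p = 0.0187). Klc1, a light chain that partners Kif5b and is named after its values were seen, was higher (374 and 369 CPM against 173, log2 fold 1.11, edgeR adjusted p = 3.81e-05). The light chains Klc2 (log2 fold 0.54, adjusted p = 0.0711) and Klc4 (0.77, adjusted p = 0.0513) were not called, and Klc3 was too rare to test.

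Subunits of kinesin-2, the heterotrimeric motor of cilia and vesicles, also differed in their values. Kif3a had 12.21 and 12.04 CPM against 6.38 and was higher (1.90-fold, edgeR adjusted p = 0.0176), though DESeq2 did not call it (adjusted p = 0.159). Kif3b had 90.0 and 98.5 CPM against 66.2 and was not called (log2 fold 0.51, adjusted p = 0.0919). Kif3c, the alternative partner of Kif3a, had 31.1 and 29.5 CPM against 48.8 and was lower (1.61-fold, edgeR adjusted p = 0.0183). Its span overlaps another gene with 490 counts beside 1587 for Kif3c, and DESeq2 did not call it (adjusted p = 0.0940). The accessory subunit Kifap3, named after its values were seen, was higher (62.8 and 76.7 CPM against 30.2, log2 fold 1.21, edgeR adjusted p = 5.52e-05).

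The second higher symbol, Kif1bp, encodes a protein that binds kinesins and is no motor. It had 95.6 and 78.0 CPM against 55.3 (1.57-fold, edgeR adjusted p = 0.0290), and neither DESeq2 (adjusted p = 0.0607) nor cyclic loess (adjusted p = 0.0834) called it. None of the 5 tested vesicle motors of the kinesin-3 family was called: Kif1c (194, 195 and 202 CPM), Kif1b (log2 fold −0.28), Kif13a (0.36), Kif13b (0.65) and Kif16b (−0.25). The other uncalled symbols included the ciliary regulator Kif7, the depolymerases Kif2a and Kif24, the minus-end motor Kifc3, and Kif9 and Kif26b with under 8 CPM. The remaining 12 symbols were not tested: Kif1a, Kif2b, Kif6, Kif12, Kif16bos, Kif19a, Kif26a and Kif28 had no count, and Kif5a, Kif17, Kif27 and Kifc2 at most 12.

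**Figure D3:**
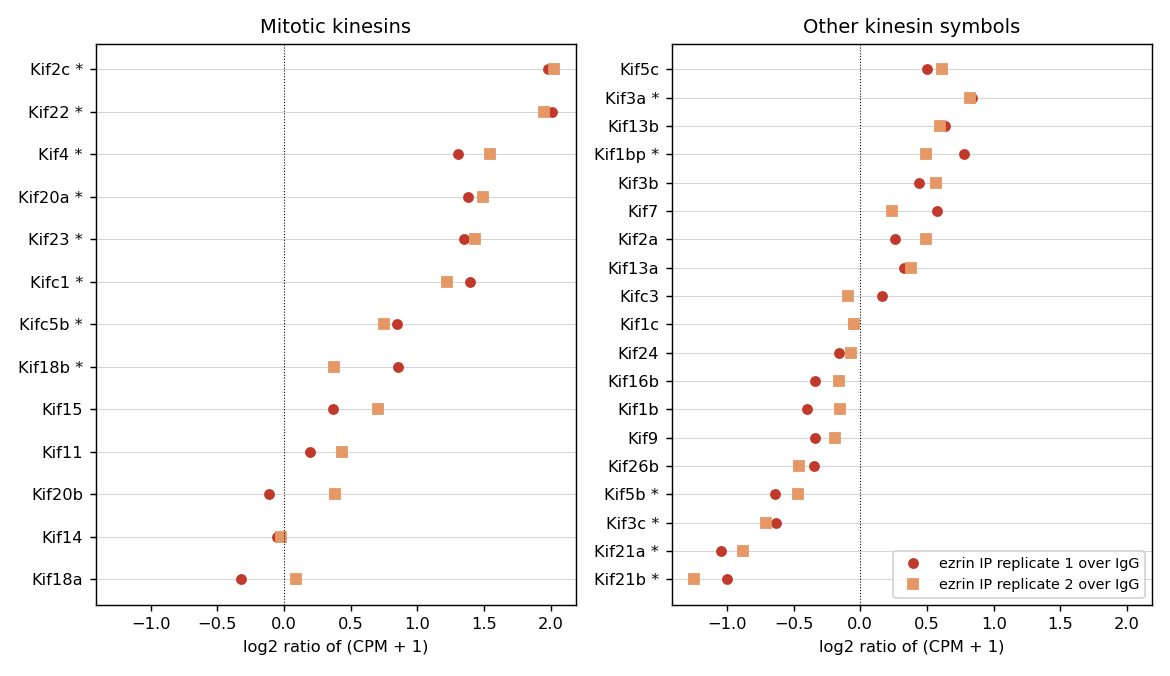
Log2 ratio of each ezrin library to IgG, with 1 CPM added to both sides (horizontal axis), for the 13 mitotic kinesins (left) and the 19 tested other kinesin symbols (right); each marker is 1 ezrin library and an asterisk marks an edgeR call. All 8 called mitotic kinesins lie to the right of 0, and 4 of 6 called other symbols lie to the left.

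Within cytoplasmic dynein the intermediate and light intermediate chains were higher while the heavy chain was not called. Of 7 dynein symbols 6 were tested, with 3 higher, none lower and 3 not called. Among all tested genes 19% were higher and 17.4% lower. Dync1i2, the intermediate chain that binds dynactin (chromosome 2, 71211676 to 71263303), had 149 and 175 CPM against 62.0 (2.61-fold, log2 fold 1.38, SE 0.26, edgeR adjusted p = 1.24e-06). Dync1li1 and Dync1li2 encode the light intermediate chains that hold cargo adaptors. Dync1li1 had 136 and 121 CPM against 71.5 (1.80-fold, edgeR adjusted p = 0.00330). Dync1li2 had 234 and 316 CPM against 163 (1.68-fold, edgeR adjusted p = 0.00700), and after cyclic loess it was not called (adjusted p = 0.148).

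The motor subunit itself, Dync1h1 (chromosome 12, 110601395 to 110666944), had 439 and 469 CPM against 486. Its libraries differed little, at −0.10 on the log2 scale (SE 0.22), which edgeR did not call (adjusted p = 0.754), and after cyclic loess it was called lower (−0.57, adjusted p = 0.0324). The ciliary dynein messages were lower in level and not called: Dync2h1 had 23.8, 30.4 and 28.1 CPM and Dync2li1 2.64, 2.27 and 1.88 CPM. The span of Dync2h1 overlaps Dcun1d5, with 5379 counts beside 1256 for Dync2h1. Dync1i1, the intermediate chain of neurons, had no count. Of the dynein light chains, listed among the motor partners, Dynll1 (log2 fold −0.47), Dynll2 (0.06), Dynlrb1 (−0.06), Dynlt1b (−0.24), Dynlt1f (−0.03) and Dynlt3 (0.27) were not called, nor were the rare Dynlt1a and Dynlt1c.

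Dynactin was the class with the largest share of higher members, though it holds only 6 genes. Of these 5 were higher, against 19% of all tested genes, and Dctn5 was not called. The median log2 fold was 0.83, and 0.71 after cyclic loess. Dctn1, which encodes p150Glued, the subunit that grips microtubules and dynein (chromosome 6, 83165909 to 83200118), had 248 and 239 CPM against 100 (2.43-fold, log2 fold 1.28, SE 0.25, edgeR adjusted p = 4.14e-06). Dctn2, which encodes dynamitin (chromosome 10, 127266262 to 127281959), had 376 and 352 CPM against 161 (2.27-fold, log2 fold 1.18, SE 0.24, edgeR adjusted p = 1.15e-05), and overlaps Mbd6, with 2772 counts beside 15005. The ezrin libraries lay close together for both subunits.

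Dctn4 (81.6 and 87.8 CPM against 51.1) and Dctn6 (31.7 and 35.6 against 17.7), both at the pointed end of the complex, were 1.66- and 1.91-fold higher (edgeR adjusted p = 0.0139 and 0.00314). Dctn3, of the shoulder, had 60.5 and 53.2 CPM against 36.3 (1.57-fold, edgeR adjusted p = 0.0363), and DESeq2 did not call it (adjusted p = 0.0824). Dctn5, also of the pointed end, had 33.7 and 42.4 CPM, on either side of 34.3 in IgG. The pointed-end subunit Actr10, named after its values were seen, was higher (log2 fold 1.08), and the Arp1 filament subunits Actr1a (0.34) and Actr1b (0.03) were not called.

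Among the EML proteins, which bind the microtubule lattice, 3 of 6 were higher and none lower. The shares over all tested genes were 19% and 17.4%. Eml2 (chromosome 7, 19176421 to 19206482) had the largest log2 fold of all tested members, at 22.7 and 23.4 CPM against 4.81. This was 4.78-fold higher (log2 fold 2.26, SE 0.32, edgeR adjusted p = 1.79e-10). Eml1 had 271 and 300 CPM against 174 (1.64-fold, edgeR adjusted p = 0.00992) and was not called after cyclic loess (adjusted p = 0.170). Eml3 had 150 and 135 CPM against 77.8 (1.83-fold, edgeR adjusted p = 0.00245). Eml4 (22.0 and 29.7 CPM against 25.7) and Eml5 (55.8 and 69.2 against 59.8) had IgG between the ezrin libraries. Eml6 (14.8 and 16.3 against 12.3) was not called either, and its span overlaps Rtn4, with 39720 counts beside 688 for Eml6.

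Of the structural MAPs, Map1s alone was called: it was higher, at 206 and 132 CPM against 74.1 (2.28-fold, log2 fold 1.19, SE 0.25, edgeR adjusted p = 2.69e-05). Its ezrin libraries differed 1.55-fold, the widest gap among called members, and both lay above IgG. Map4, the main MAP of non-neuronal cells, had 275 and 267 CPM against 194 (log2 fold 0.48, edgeR adjusted p = 0.0938). Map7d1, a kinesin-1 cofactor, had 380 and 276 CPM against 234 (log2 fold 0.49, edgeR adjusted p = 0.0833). Both were called higher with library size alone (adjusted p = 0.0330 and 0.0283).

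Map1a (138 and 119 CPM against 110) and Map1b (196 and 202 against 208), relatives of Map1s known from neurons, were not called, nor was Map2 at 7.43, 9.42 and 8.99 CPM. The class median of 0.35 became 0.17 in ezrin replicate 2 alone and 0.06 after cyclic loess. Map7 had 1 count and Map7d2 and Map7d3 none. The end-binding proteins that mark growing tips were flat: Mapre1 had 170 and 209 CPM against 172, Mapre2 53.2 and 53.4 against 58.0, and Mapre3 40.9 and 37.3 against 35.6. Their log2 folds lay between −0.12 and 0.15 with SE of 0.24 to 0.25.

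**Figure D4:**
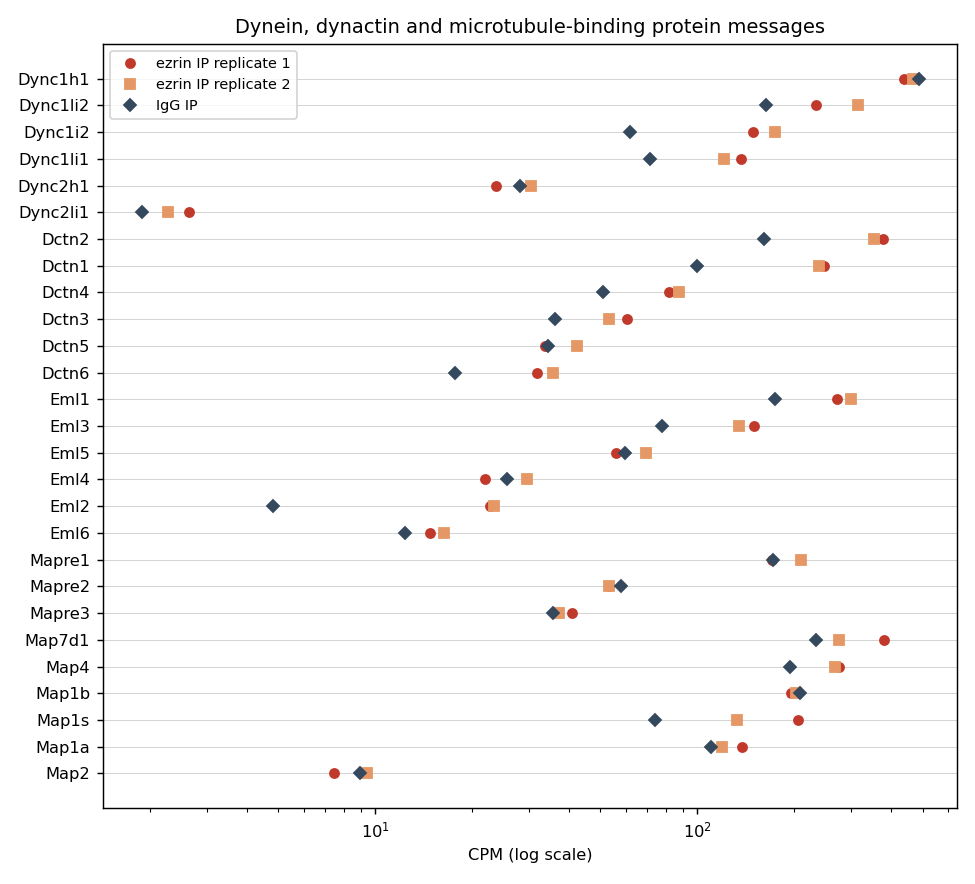
CPM on a log scale (horizontal axis) of the tested dynein, dynactin, EML, end-binding and MAP messages in the 3 libraries; each marker is 1 library. IgG lies to the left of both ezrin libraries for Dync1i2, Dctn1, Dctn2, Eml2 and Map1s and close to or right of them for Dync1h1, Map1b and the end-binding genes.

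Other genes of the microtubule system, taken from a list of tubulin-folding, nucleating, severing and spindle factors, were called about as often as the background. Of 126 tested, 26 were higher, 19 lower and 81 not called, with a median log2 fold of 0.02. Among all tested genes 19% were higher and 17.4% lower. The genes named below were picked for their large log2 folds and do not stand for their groups. Among spindle and lattice binders, 8 were higher and 6 lower of 25. Spag5 (113 and 114 CPM against 39.1, log2 fold 1.53) and Tpx2 (250 and 287 CPM against 107, log2 fold 1.33), which organises spindle microtubules, were higher, and the ubiquitin ligase Mid1 was lower (136 and 116 CPM against 284, log2 fold −1.17). Their edgeR adjusted p were 1.37e-07, 1.54e-06 and 3.71e-06.

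Of 23 genes for tubulin folding and modification, 5 were higher and 3 lower, against 19% and 17.4% of all tested genes. The higher ones were led by the folding cofactor Tbcd (160 and 173 CPM against 47.7, log2 fold 1.80), the tubulin deacetylase Hdac6 (35.2 and 30.0 against 9.93, 1.72) and the tubulin acetylase Atat1 (14.2 and 13.7 against 5.12). Of 33 motor partners, 5 were higher and 3 lower, against the same shares of all tested genes. Bicd1, a dynein adaptor, was lower but rare (1.45 and 1.19 CPM against 7.84, log2 fold −2.56), as was the mitochondrial adaptor Trak1 (30.1 and 31.7 against 78.6, −1.35). Hook2, another dynein adaptor, was higher (19.9 and 16.6 against 6.48, 1.49).

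At the gamma-tubulin ring and its augmin helpers, 5 of 21 genes were higher and 2 lower, against 19% and 17.4% of all tested genes. Haus5 had 33.1 and 29.1 CPM against 9.30 (log2 fold 1.74), and the log2 folds of Haus8 and Haus2 were 0.87 and −0.93. Of 24 plus-end, minus-end and severing factors, 3 were higher and 5 lower, against the same shares of all tested genes. Tacc3 (455 and 465 CPM against 169, log2 fold 1.44) and its partner Ckap5 (154 and 188 against 70.2, 1.28), a microtubule polymerase, were higher. The severing protein Fign was lower (6.73 and 8.88 CPM against 27.2, log2 fold −1.80).

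Across the 72 tested members, the log2 fold had Spearman's rho of −0.46 (Pearson's r −0.41) with log2 gene length, beside −0.05 (0.02) over all 12478 genes. The log2 ratio of ezrin replicate 1 to replicate 2 also went with length among the members (rho −0.46, r −0.43) and less so over all genes (rho −0.19, r −0.17). With log2 mean CPM the members' log2 fold had rho 0.18 (r 0.06), against 0.26 (0.23) over all genes. These values are across genes, which share libraries and are not independent replicates. The part of length and level in the members' folds was not tested beyond the alternatives given in this text. Among these, the length trend was fitted over all tested genes, not over the members.

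**Figure D5:**
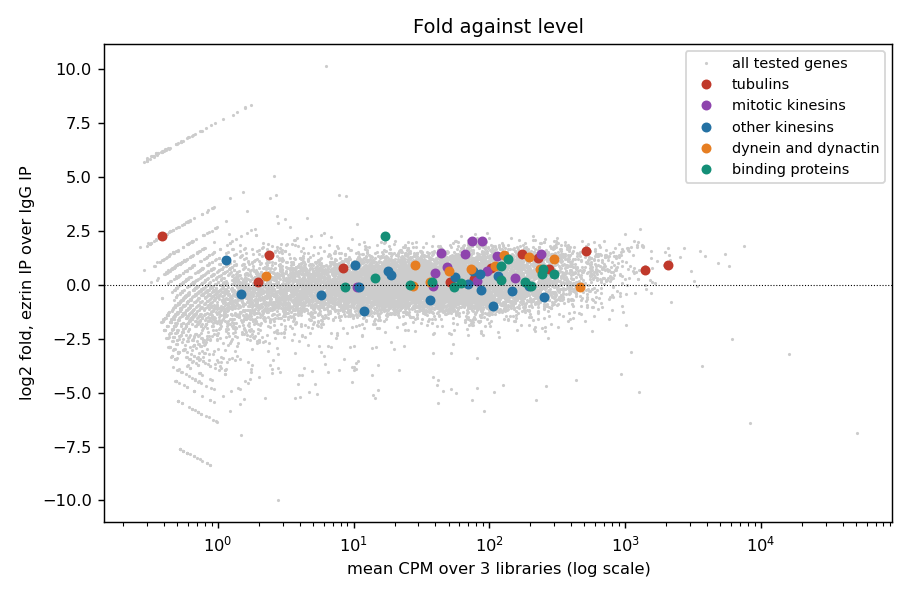
Log2 fold of the ezrin IP over the IgG IP (vertical axis) against mean CPM over the 3 libraries (log scale, horizontal axis); grey points are all 12478 tested genes and coloured points the 72 tested members. Of the 72 members 9 lie under 10 CPM, and Tuba1b and Tubb5 are the members at the right edge.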

How the data were processed

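The authors deposited, for each library, raw counts per gene symbol and a table of RPKM (reads scaled by gene length and library size), per the file headers. The build was GRCm38, per the submitters' processing notes. The sources used here name no aligner, counter, annotation or strand setting, nor how reads with several matches were counted. Per the labels, RNA came from a RIP kit with ribosomal RNA depletion, although the molecule is named polyA RNA.

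Deposited counts were tested with edgeR 4.0.16 in R 4.3.3 (TMM, filterByExpr, quasi-likelihood, Benjamini-Hochberg at 0.05). The fit had 1 residual degree of freedom and infinite prior degrees of freedom, so the spread is pooled over genes, and SE is the log2 fold over the square root of F. Single-library ratios add 1 CPM. The test was run on simulated counts with 200 changed genes per set. Of genes raised 2-fold 67% were called, and of those lowered 2-fold 62%, so an uncalled gene may still differ. The simulated IgG library was given the spread fitted to these data. The simulation thus cannot check the unknown spread of the 1 IgG library. DESeq2 1.42.0 and limma 3.58.1 served as alternatives. All 94 symbols matched RefSeq names of GRCm38.p6. Gene length was taken from deposited count over RPKM, on a scale set by 62 small RNA genes. Spans of 12 of 72 tested members overlap a gene with over 10% of their own counts. These are Tuba4a, Dctn2, Dync2h1, Eml5, Eml6, Map1a, Kif2a, Kif3c, Kif7, Kif18a, Kif20a and Kifc3. For Dync2h1, Eml5, Eml6 and Kif7 the other gene had more counts than the member.

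The members and lists were chosen with earlier results of these data known. Named with values were, per class, the 3 most abundant members, the highest and lowest log2 folds and members called at least 2-fold at 10 CPM or more. In each list of other genes these were the 3 called genes of largest log2 fold in either direction. Members of smaller folds and motor partners were added after their values were seen.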

Additional observations from a re-analysis of the deposited data

How the results depend on the processing

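Of the 29 members called higher, 20 were called higher under all 10 tested settings that kept them: Tubb4b, Tubb2a, Tuba1c, Tuba4a, Dctn1, Dctn2, Dctn4, Dctn6, Dync1i2, Dync1li1, Eml2, Eml3, Map1s and 7 mitotic kinesins (all but Kif18b). None of the 4 lower members was. The count of higher members ranged from 25 (DESeq2, cyclic loess or a mean of at least 10 CPM) to 42 (RPKM with 0.1 added, which called none lower). The share of all tested genes called was not taken for some settings, RPKM plus 0.1, library size alone and no filter among them. Counts in those settings thus have no background beside them. The count of lower members was 2 with library size alone, with no filter and with DESeq2, 1 with RPKM plus 1 and 0 with RPKM plus 0.1 (limma). Other microtubule genes called higher were 44 and 43 with RPKM plus 1 and plus 0.1, and those called lower were 12 with DESeq2 and 4 in both RPKM settings. With RPKM plus 1, 29.9% of all tested genes were higher and 7.73% lower, and with DESeq2 8.82% were lower. The members' median log2 fold was 0.62 with library size alone and 0.51 with DESeq2's size factors and with DESeq2. With no filter it was 0.74 and over genes averaging 10 CPM or more it was 0.40. These 2 medians cover 80 and 63 members instead of 72, so they are not over the same genes. The members' median was 0.64 and 0.86 with RPKM plus 1 and plus 0.1, 0.36 after cyclic loess and 0.51 with the length trend subtracted. That trend was fitted over all tested genes, where the log2 fold had a rho of −0.05 with length. Subtracting it need not remove the members' own rho of −0.46. Single libraries gave 0.47 to 0.47. The median of all genes moved from −0.02 to 0.10 with library size alone, 0.22 and 0.34 with RPKM plus 1 and plus 0.1, so part of these moves is common to all genes. Tuba1b turned to −0.03 (−0.035) after cyclic loess. The cause of these moves was not tested. No paired analysis was possible because the groups share only replicate number 1. With 1 IgG library, no setting shows its spread.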
